A study of Mus musculus with 4 samples.

Results

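The genes described are 41 that encode components of the lysosome: proteases (mostly cathepsins), enzymes that cut sugars, sulfates and lipids, the activator proteins that help them, proteins of the lysosomal membrane, and 2 transcription factors that control such genes. They were taken from the deposited expression table by symbol, and all 41 of its 24497 features named in the list were found, each once. Messenger RNA selected by its poly(A) tail had been sequenced from the spleens of mice with a transplanted acute myeloid leukaemia in which the donor cells express the fusion oncogene MLL-AF9. Every mouse was a secondary recipient, sublethally irradiated (320 rads) and injected with CD45.2+ leukaemia cells that had been sorted from the bone marrow of primary leukaemic mice. From a week after transplantation the control group received PBS and the other group received CS1, which the labels call an FTO inhibitor, given intraperitoneally at 5 mg/kg every second day for 20 days; FTO is an enzyme that removes methyl groups from adenosines in RNA. Cells bearing CD45.2 were then pulled from the spleen suspension on magnetic beads before RNA was extracted, so the libraries are enriched bulk cells and not sorted single types. Each group had 2 libraries. The labels give no strain, age or leukaemia clone, and nothing in them ties the libraries of a group to different animals. The p-values therefore describe the spread among these 4 samples, and that spread may be technical. One label of CS1 replicate 2, its treatment field, says CS2 where its title says CS1, and it was kept as CS1.

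The lysosome is an acidic organelle in which soluble hydrolases break down proteins, glycans, lipids and nucleic acids delivered by endocytosis, phagocytosis and autophagy. Most of the enzymes are made in the endoplasmic reticulum, tagged with mannose 6-phosphate and carried to the lysosome by receptors, while a coat of heavily glycosylated membrane proteins lines the organelle. The transcription factors TFEB and TFE3 bind a short palindromic element near the start of many of these genes. Phagocytes such as monocytes and macrophages are rich in lysosomes, and the azurophil granules of neutrophil precursors are related organelles that share some of the same proteins.

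The values were taken as TPM, a share of each library corrected for gene length, so levels can be compared between genes. Together the 41 genes summed to 15084 and 14984 TPM in PBS 1 and 2 and to 10681 and 10664 TPM in CS1 1 and 2. That was 1.53% and 1.52% of the total in PBS and 1.09% in either CS1 library, a ratio of the group means of 0.710. CS1 was compared with PBS in limma on log2(TPM + 1) over the 11866 features that reached 1 TPM in 2 libraries or more, with Benjamini-Hochberg adjustment over all of them, and an adjusted p under 0.05 counted as a call. Ctsf was below that level, and of the other 40 genes 28 fell, 9 rose and 3 did not pass. The background was 31.6% of all tested features lower and 35.3% higher in CS1, or 67.0% in either direction. The median log2 fold change was -0.32 over the 40 genes and 0.040 over all tested features. The groups did not overlap for 38 of the 40, against 84.4% of all tested features. Many of the calls are small, and 1 of the 40 genes, Cd63, had a log2 fold change of 1 or more in size. In RNA from bulk cells, fewer cells of a type and less RNA per cell cannot be told apart, and TPM shows shares of the RNA, not amounts per cell.

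**Figure D1:**
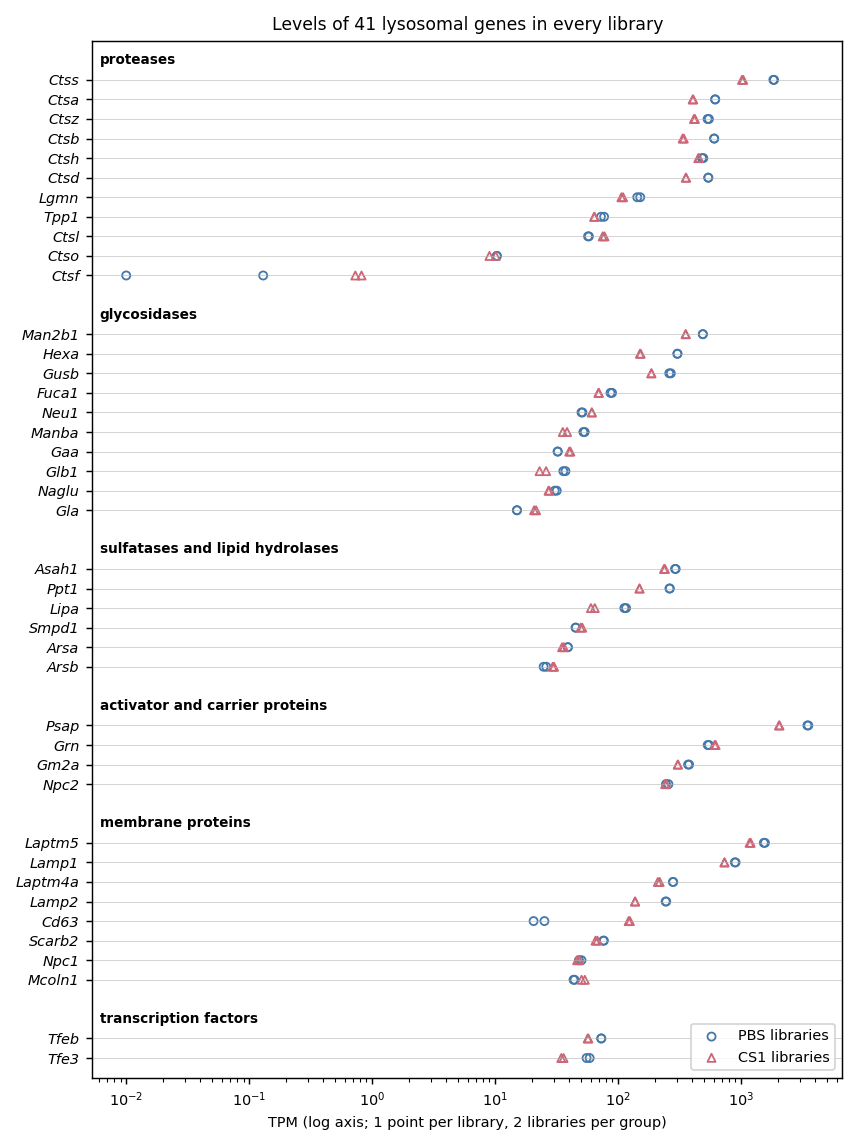
TPM of each of the 41 genes in every library (log axis), grouped by class and ordered by mean level; circles are the 2 PBS libraries and triangles the 2 CS1 libraries. Psap is the most abundant gene and Ctsf the least, and the groups are apart for every gene except Npc1 and Npc2. Among all tested features the groups are apart for 84.4%.

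Both transcription factors of the list fell. Tfeb (chromosome 17, 47737030 to 47792419, plus strand; all gene coordinates are from GENCODE M21, which uses GRCm38) was at 73.2 and 73.0 TPM in PBS and at 56.7 and 57.4 TPM in CS1, a log2 fold change of -0.35 ± 0.03 (SE, limma adjusted p = 0.000219). Tfe3 (chromosome X, 7762560 to 7775202, plus strand) was at 58.8 and 55.5 TPM in PBS and at 34.6 and 36.1 TPM in CS1, a log2 fold change of -0.68 ± 0.05 (adjusted p = 8.27e-05). Each CS1 library lay below both PBS libraries for either gene. These are transcript levels; TFEB and TFE3 are known to be controlled mainly by phosphorylation and by their place in the cell, which the data do not measure. Of 22 genes listed as the related MiT factors and their control by the kinase mTORC1 on the lysosomal surface, 21 were tested. In this list 6 were higher (28.6%) and 7 lower (33.3%), against 35.3% and 31.6% of all tested features (median -0.048). Tsc1, a brake on mTORC1, rose from 15.9 ± 0.792 to 24.7 ± 0.262 TPM (SD, n = 2 each), and Fnip1, a partner of folliculin, from 28.7 ± 1.21 to 38.6 ± 1.87 TPM. Its paralogue Fnip2 fell from 28.7 ± 0.771 to 20.3 ± 0.0495 TPM. Tfec, another MiT factor, rose with a log2 fold change of 0.34, a call lost without CS1 replicate 2 (adjusted p = 0.0545, range 0.00702 to 0.0545 over its alternatives). Ppp3r1, the regulatory subunit of the phosphatase calcineurin, fell by 0.35 on the log2 scale. Mitf fell from 7.42 ± 0.453 to 5.50 ± 0.721 TPM (log2 fold change -0.38), and this call was lost with no filter on low values (adjusted p = 0.0735). Leaving out PBS replicate 1 (0.129), PBS replicate 2 (0.0648) or CS1 replicate 2 (0.117) also ended it, and its alternatives ranged from 0.00529 to 0.129.

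The element bound by these factors, often called the CLEAR element, was searched as the palindrome of 10 bases that has TCACGTGA between a G and a C, and as its inner parts TCACGTGA and CACGTG, in RefSeq promoter windows (GRCm38.p6) that run from 250 bases before to 50 bases after each annotated start. Each motif is its own reverse complement, so 1 search covers both strands, and each longer motif contains the shorter ones. Windows were listed for 37 of the 41 genes (43 windows). The 10-base palindrome was in none of these windows and in 0.326% of all 32851 windows. TCACGTGA was in 4 genes' windows, 10.8% of the 37, against 1.12% of the 27025 genes with a window. CACGTG was in windows of 12 genes, 32.4% of the 37, against 8.09% of all genes with a window. The genes with TCACGTGA were Ctsa and Ctsd, which fell, and Gla and Mcoln1, which rose. Of the 12 genes with CACGTG, 7 fell (Arsa, Ctsa, Ctsd, Glb1, Lamp1, Lgmn and Naglu), 4 rose (Ctsl, Gaa, Gla and Mcoln1) and Ctsf was not tested. Holding the motif thus went with either direction. A match describes the letters and does not show binding.

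The stretches that hold the matches are shown so that the number and spacing of the motifs can be seen beside the direction of each gene. They run 5′ to 3′ on the gene's strand, end at most 30 bases past the start, and have TCACGTGA in capitals for the first 4 genes and CACGTG for Lamp1, which was added after its matches were seen because it holds 4 of them.
Ctsa (fell; chr2:164833700-164833802, plus strand): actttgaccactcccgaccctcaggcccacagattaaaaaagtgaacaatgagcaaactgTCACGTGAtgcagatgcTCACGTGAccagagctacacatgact
Ctsd (fell; chr7:142387859-142387986, minus strand): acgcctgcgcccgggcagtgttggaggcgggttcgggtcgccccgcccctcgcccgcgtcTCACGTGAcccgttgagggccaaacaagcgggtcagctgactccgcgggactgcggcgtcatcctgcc
Mcoln1 (rose; chr8:3500413-3500540, plus strand): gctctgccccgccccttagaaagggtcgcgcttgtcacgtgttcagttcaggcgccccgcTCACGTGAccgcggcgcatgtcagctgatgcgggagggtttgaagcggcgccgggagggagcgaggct
Gla (rose; chrX:134601133-134601255, minus strand): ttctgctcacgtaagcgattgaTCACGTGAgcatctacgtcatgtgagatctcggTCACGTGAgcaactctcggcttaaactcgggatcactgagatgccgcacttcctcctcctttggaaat
Lamp1 (fell; chr8:13159040-13159190, plus strand): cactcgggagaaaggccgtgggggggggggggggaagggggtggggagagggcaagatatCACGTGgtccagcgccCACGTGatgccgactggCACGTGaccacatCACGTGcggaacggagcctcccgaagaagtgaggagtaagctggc
Ctsa held its 2 copies of TCACGTGA around the start, with first bases at -13 and 5 counted from the start (the start is 1 and the base before it is -1). The single copy began at -99 in Ctsd and at -46 in Mcoln1. Gla held 2 copies, beginning at -228 and -195. The 4 copies of CACGTG in Lamp1 began at -61, -45, -28 and -15.

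The proteases were the class with most of the abundant enzymes. Of their 10 tested genes 8 fell (80%), Ctsl rose (10%) and Ctso did not pass (median log2 fold change -0.41). Among all tested features 31.6% were lower and 35.3% higher. Their summed level was 4918 and 4941 TPM in PBS and 3248 and 3279 TPM in CS1. Ctss (chromosome 3, 95526786 to 95556403, plus strand) encodes cathepsin S, a cysteine protease that trims the invariant chain of MHC class II, and it was the most abundant protease. It stood at 1833 and 1859 TPM in PBS and at 1019 and 1043 TPM in CS1, a log2 fold change of -0.84 ± 0.02 (adjusted p = 4.00e-06). Ctsb, encoding the broadly acting cathepsin B, was at 606 and 605 TPM in PBS and at 343 and 336 TPM in CS1 (log2 fold change -0.83 ± 0.02, adjusted p = 4.00e-06). For both genes the CS1 libraries were close to each other and far below the PBS libraries. Ctsd, which encodes the aspartic protease cathepsin D, was at 543 and 541 TPM in PBS and at 358 and 356 TPM in CS1 (log2 fold change -0.60 ± 0.02, adjusted p = 6.71e-06).

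Ctsl, encoding cathepsin L, a cysteine endopeptidase of the same family as cathepsins B and S, went the other way. It was at 57.0 and 58.0 TPM in PBS and at 75.1 and 77.6 TPM in CS1, a log2 fold change of 0.40 ± 0.03 (adjusted p = 0.000189). Both CS1 libraries lay above both PBS libraries. Ctss was 32.1 times as abundant as Ctsl in either PBS library and 13.6 and 13.5 times in CS1. The ratio of Ctsb to Ctsl was 10.6 and 10.4 in PBS and 4.56 and 4.33 in CS1. Such a ratio within a library does not change when the library is rescaled.

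The remaining cysteine proteases and Tpp1 had smaller log2 fold changes than Ctss and Ctsb. Ctsz, encoding the carboxypeptidase cathepsin Z, was at 535 and 548 TPM in PBS and at 414 and 422 TPM in CS1 (log2 fold change -0.37). Lgmn, encoding legumain, which cleaves after asparagine and helps to mature cathepsins, was at 151 and 143 TPM in PBS and at 107 and 110 TPM in CS1 (-0.44). Tpp1, the tripeptidyl peptidase that is deficient in a childhood form of neuronal ceroid lipofuscinosis, was at 72.6 and 77.0 TPM in PBS and at 63.9 and 64.3 TPM in CS1 (-0.22). These 3 genes shared a direction, and their groups did not overlap, which was so for 84.4% of all tested features. Ctsh, encoding the aminopeptidase cathepsin H, was at 494 and 482 TPM in PBS and at 449 and 456 TPM in CS1 (log2 fold change -0.11, adjusted p = 0.0070). Turning the variance trend off ended that call (adjusted p = 0.0723), and the sign turned after quantile normalization (log2 fold change 0.045, adjusted p = 0.127), in a range of 0.00358 to 0.127 over its alternatives. Ctso, a little-studied cathepsin, was at 10.3 TPM in both PBS libraries and at 10.1 and 9.0 TPM in CS1. It missed the threshold (adjusted p = 0.316) but passed it after quantile normalization (0.0463, range 0.0463 to 0.808). Ctsf, encoding cathepsin F, was at 0.13 TPM in PBS 1, was listed at 0.01 in PBS 2, and was at 0.82 and 0.73 TPM in CS1. With no filter on low values Ctsf was called higher (adjusted p = 0.00488), at levels under 1 TPM in every library.

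**Figure D2:**
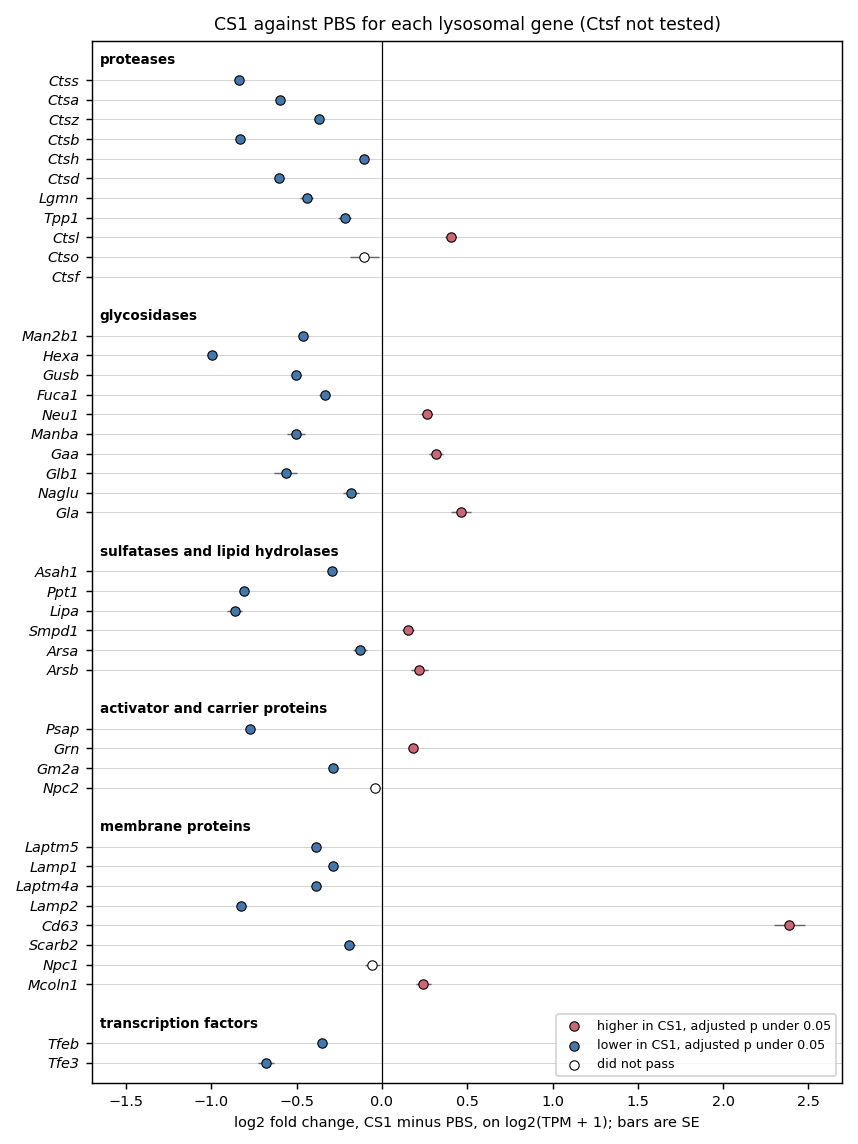
Log2 fold change of CS1 minus PBS on log2(TPM + 1) with its SE for the 40 tested genes, by class; blue points fell, red points rose and white points did not pass at an adjusted p under 0.05. Cd63 stands alone at 2.39, and Hexa has the lowest value at -0.998.

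Among the glycosidases, which remove sugars one at a time from glycoproteins, glycolipids, glycosaminoglycans and glycogen, 7 of 10 fell and 3 rose (median -0.40). That was 70% lower and 30% higher, against 31.6% and 35.3% of all tested features. Hexa (chromosome 9, 59539540 to 59565109, plus strand), the alpha subunit of beta-hexosaminidase, which is mutated in Tay-Sachs disease, had the deepest fall of all 41 genes. It was at 304 TPM in both PBS libraries and at 151 and 153 TPM in CS1, a log2 fold change of -0.998 ± 0.02 (adjusted p = 3.17e-06). Man2b1, the lysosomal alpha-mannosidase and the most abundant glycosidase here, was at 489 and 490 TPM in PBS and at 354 and 356 TPM in CS1 (log2 fold change -0.46). Gusb, the beta-glucuronidase, was at 269 and 261 TPM in PBS and at 186 and 187 TPM in CS1 (-0.50). Manba, the beta-mannosidase, was at 53.6 and 52.2 TPM in PBS and at 38.5 and 35.5 TPM in CS1 (-0.50). All 3 had groups that did not overlap, as had 84.4% of all tested features. Fuca1, which removes fucose, was at 89.4 and 86.8 TPM in PBS and at 69.9 and 69.2 TPM in CS1 (-0.34). Naglu, an enzyme of heparan sulfate breakdown, was at 30.6 and 31.8 TPM in PBS and at 27.6 and 27.2 TPM in CS1 (-0.18, adjusted p = 0.0158). The Naglu call was lost without PBS replicate 2 (adjusted p = 0.0804), CS1 replicate 1 (0.0567) or CS1 replicate 2 (0.0715), in a range of 0.00664 to 0.0804 over its alternatives.

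The 3 glycosidases that rose were expressed at lower levels. Gla, the alpha-galactosidase that is deficient in Fabry disease, was at 15.1 TPM in both PBS libraries and at 20.8 and 21.6 TPM in CS1 (log2 fold change 0.46 ± 0.06, adjusted p = 0.000807). Gaa, the acid alpha-glucosidase that degrades glycogen, was at 32.4 and 32.2 TPM in PBS and at 40.1 and 40.96 TPM in CS1 (0.32 ± 0.04, adjusted p = 0.00090). Neu1, a sialidase, was at 51.4 and 50.4 TPM in PBS and at 61.2 TPM in both CS1 libraries (0.26 ± 0.03, adjusted p = 0.000948). For each of them both CS1 libraries were above both PBS libraries. The groups did not overlap, in either direction, for 84.4% of all tested features.

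NEU1 is known to work in a complex with beta-galactosidase (Glb1) and the serine carboxypeptidase cathepsin A (Ctsa), which protects its partners from degradation, and the 3 transcripts did not move together. Glb1 was at 35.9 and 37.4 TPM in PBS and at 23.0 and 26.0 TPM in CS1 (log2 fold change -0.56 ± 0.07, adjusted p = 0.000757). Ctsa was at 616 and 617 TPM in PBS and at 409 and 405 TPM in CS1 (-0.60 ± 0.02, adjusted p = 6.94e-06). Against these falls stands the rise of Neu1. The ratio of Ctsa to Neu1 was 12.0 and 12.2 in PBS and 6.68 and 6.61 in CS1, and that of Glb1 to Neu1 was 0.699 and 0.741 in PBS and 0.376 and 0.425 in CS1. Exons of Ctsa share 495 bases with Pltp, a gene on the opposite strand that fell too (18.8 to 8.73 TPM on average). They share another 324 bases with Neurl2, also on the opposite strand, which did not pass (12.5 to 13.8 TPM). Exons of Glb1 share 165 bases with Tmppe, on the same strand and also lower (16.5 to 12.8 TPM). It is not stated in the sources used here whether strand was used in counting, so the Ctsa values are uncertain to that extent. Strand could not separate Glb1 from Tmppe in either case, and the part of their overlap in the Glb1 values was not tested.

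Of the 6 sulfatases and lipid hydrolases, 4 fell (66.7%) and 2 rose (33.3%), against 31.6% and 35.3% of all tested features (median -0.21). Lipa, the lysosomal acid lipase that frees cholesterol and fatty acids, was at 113 and 116 TPM in PBS and at 64.7 and 60.2 TPM in CS1, a log2 fold change of -0.86 ± 0.04 (adjusted p = 2.77e-05). Ppt1, a thioesterase that strips palmitate from proteins, was at 264 and 262 TPM in PBS and at 149 and 150 TPM in CS1 (-0.81 ± 0.02, adjusted p = 4.66e-06). Both genes had CS1 levels close to 0.55 and 0.57 times their PBS levels. Ppt1 shares 129 of its 3674 exon bases with Cap1, an abundant gene on the opposite strand that fell from 866 to 426 TPM on average, and the part of this overlap in the Ppt1 value was not tested. Asah1, the acid ceramidase, was at 295 and 291 TPM in PBS and at 241 and 236 TPM in CS1 (-0.29).

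Smpd1, the acid sphingomyelinase that makes ceramide, was at 45.1 and 45.4 TPM in PBS and at 51.2 and 49.7 TPM in CS1 (log2 fold change 0.15, adjusted p = 0.0123). Asah1 and Smpd1, which remove and produce ceramide, therefore differed in direction. The Smpd1 call was lost without PBS replicate 1 (adjusted p = 0.0567) or CS1 replicate 1 (0.0647), in a range of 0.00605 to 0.0647 over its alternatives. The sulfatases split as well. Arsa, which acts on sulfatide, was at 39.1 and 39.0 TPM in PBS and at 36.3 and 35.1 TPM in CS1 (-0.13, adjusted p = 0.0349), and Arsb, which acts on dermatan sulfate, was at 26.1 and 24.8 TPM in PBS and at 29.4 and 30.2 TPM in CS1 (0.22, adjusted p = 0.00997). The Arsa call is weak: it was lost when any of the 4 libraries was left out (adjusted p = 0.112 and 0.106 without PBS replicates 1 and 2, 0.0579 and 0.134 without CS1 replicates 1 and 2). It was also lost with the variance trend off (0.0524) and with the replicate block (0.0559), in a range of 0.0113 to 0.134. The Arsb call was lost without PBS replicate 2 (0.0535) or CS1 replicate 2 (0.0612), in a range of 0.00975 to 0.0612.

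The proteins that help the hydrolases were led by Psap (chromosome 10, 60277627 to 60302597, plus strand), the precursor of the saposins that lift sphingolipids out of membranes for the enzymes. Psap was the most abundant of the 41 genes and ranked 27 among all features of the table. It was at 3526 and 3465 TPM in PBS and at 2058 and 2036 TPM in CS1, a log2 fold change of -0.77 ± 0.02 (adjusted p = 4.00e-06). The groups were far apart, and the level fell by 1449 TPM, while the sum of the 41 genes fell by 4361 TPM, so that Psap made up 33.2% of the net difference. Ctss gave another 18.7%, and without these 2 genes the sum still went from 9693 ± 46.1 to 7595 ± 14.4 TPM (SD, n = 2 each), a ratio of 0.784. Gm2a, the activator that presents GM2 ganglioside to beta-hexosaminidase, was at 378 and 371 TPM in PBS and at 307 and 306 TPM in CS1 (log2 fold change -0.29). The ratio of Hexa to Gm2a was 0.802 and 0.821 in PBS and 0.490 and 0.50 in CS1, and both CS1 ratios lay below both PBS ratios.

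Grn, encoding progranulin, a partner of prosaposin in transport to the lysosome, rose while Psap fell. It was at 549 and 536 TPM in PBS and at 610 and 622 TPM in CS1 (log2 fold change 0.18 ± 0.02, adjusted p = 0.000834), with no overlap. The ratio of Psap to Grn was 6.42 and 6.46 in PBS and 3.37 and 3.27 in CS1. The partners of cholesterol export did not pass the test. Npc2, the soluble carrier, was at 245 and 257 TPM in PBS and at 246 and 242 TPM in CS1 (log2 fold change -0.042 ± 0.030, adjusted p = 0.257), and Npc1, the membrane transporter that takes cholesterol from it, was at 50.4 and 48.1 TPM in PBS and at 48.3 and 46.5 TPM in CS1 (-0.056 ± 0.043, adjusted p = 0.288). In each gene the groups overlapped. Npc2 passed as lower when libraries were rescaled by trimmed means of M values (log2 fold change -0.080, adjusted p = 0.0458) and had the opposite sign after quantile normalization (0.073, adjusted p = 0.0995), in a range of 0.0458 to 0.816.

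**Figure D3:**
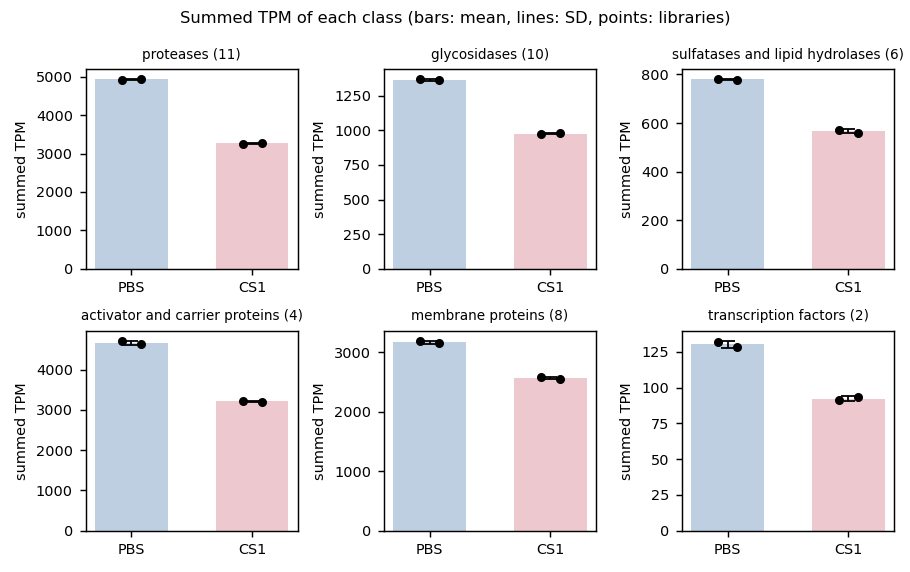
Summed TPM of the genes in each class, with bars for the mean of the 2 libraries, lines for the SD and points for the libraries; the number of genes listed is in each title. Every class sum is lower in CS1, from 0.662 times the PBS level for proteases to 0.810 times for membrane proteins. A class sum is ruled by its abundant genes. Most of the sum of activator and carrier proteins is Psap, which fell from 3496 to 2047 TPM on average. Of the others in that class, Gm2a fell from 375 to 307 TPM, Grn rose from 543 to 616 TPM and Npc2 did not pass.

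Of the 8 membrane proteins, 5 fell (62.5%), 2 rose (25%) and Npc1 did not pass (median -0.24). Among all tested features 31.6% were lower and 35.3% higher. Lamp1 and Lamp2 encode the major glycoproteins of the lysosomal membrane, and LAMP2 also serves in chaperone-mediated autophagy. Lamp2 (chromosome X, 38401357 to 38456454, minus strand) was at 244 and 247 TPM in PBS and at 137 and 138 TPM in CS1, a log2 fold change of -0.83 ± 0.02 (adjusted p = 4.66e-06). Lamp1 was at 903 and 891 TPM in PBS and at 733 and 736 TPM in CS1 (-0.29 ± 0.02, adjusted p = 6.97e-05). The ratio of Lamp1 to Lamp2 was 3.70 and 3.62 in PBS and 5.34 and 5.33 in CS1. Laptm5, a membrane protein of haematopoietic cells, was at 1566 and 1534 TPM in PBS and at 1199 and 1173 TPM in CS1 (-0.39). Its broadly expressed relative Laptm4a was at 279 and 281 TPM in PBS and at 218 and 211 TPM in CS1 (-0.38). Scarb2, which encodes LIMP-2, the receptor that carries glucocerebrosidase to the lysosome, was at 75.9 and 76.8 TPM in PBS and at 65.6 and 67.9 TPM in CS1 (-0.19). The groups were apart for all of these, as for 84.4% of all tested features. Mcoln1, encoding the calcium channel mucolipin of the lysosomal membrane, rose from 44.3 and 43.4 TPM to 50.5 and 53.7 TPM (0.24 ± 0.04, adjusted p = 0.00383).

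Cd63 (chromosome 10, 128900989 to 128912822, plus strand), a tetraspanin of late endosomes, lysosomes and exosomes, had the largest change of the 41 genes. It was at 20.6 and 25.2 TPM in PBS and at 125 and 122 TPM in CS1, a ratio of the means of 5.40 and a log2 fold change of 2.39 ± 0.09 (adjusted p = 1.07e-05). Both CS1 libraries were far above both PBS libraries. Its log2 fold change ranged from 2.25 to 2.53 over the alternatives. CD63 is also known as a membrane protein of azurophil granules. A list named azurophil granule genes was chosen, like all lists here, with earlier results of these data known. In it 7 of the 8 tested rose (87.5%, against 35.3% of all tested features) and Srgn fell (median 1.44). The log2 fold changes were 2.56 for Elane, 2.33 for Mpo and 2.15 for Ms4a3. The 7 include Ms4a3 and Igfbp4, and whether the products of these genes lie in the granules was not tested. The part of granule genes in the value of Cd63 was not tested.

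The genes were also divided by their level. Of the 20 genes with a mean of at least 100 TPM over the 4 libraries, 18 fell, Grn rose and Npc2 did not pass (median -0.45). The background at that level was 50.8% lower and 33.6% higher among 1788 features (median -0.096). Of the 20 tested genes under 100 TPM, 10 fell and 8 rose (median -0.12), against 28.2% lower and 35.7% higher among 10078 features (median 0.060). As a description, Spearman's rho between mean TPM and log2 fold change was -0.45 across the 40 genes and -0.24 across all 11866 tested features, which share the same 4 libraries.

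**Figure D4:**
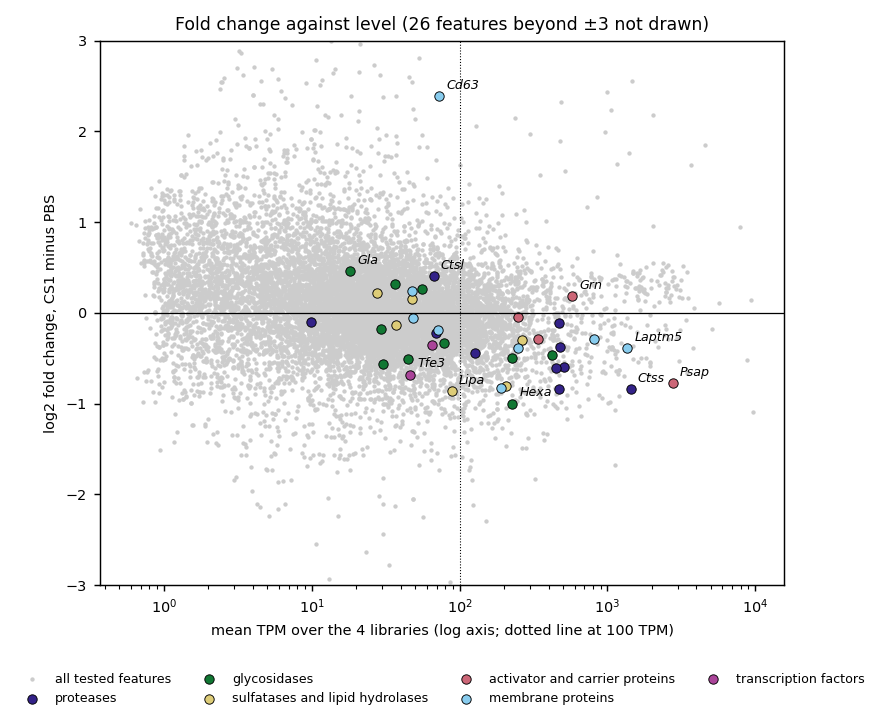
Log2 fold change of CS1 minus PBS against mean TPM (log axis) for the 40 tested genes, coloured by class, over all tested features in grey; the dotted line is at 100 TPM and 26 features beyond the axis are not drawn. Right of the line, Grn is the gene that lies clearly above 0.

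Other genes of the organelle were counted from lists that do not contain the 41. The shares lower and higher in each list can be set beside 31.6% and 35.3% of all tested features. Of 36 tested further hydrolases and activators, 22 fell (61.1%) and 6 rose (16.7%), with a median of -0.22. Smpdl3a, a relative of Smpd1, fell from 18.2 ± 1.22 to 5.23 ± 1.06 TPM (SD, n = 2 each), Ctsc, encoding the protease that activates granule serine proteases, from 139 ± 3.03 to 46.4 ± 0.778 TPM, and Ifi30, a thiol reductase that helps antigen processing, from 1355 ± 32.5 to 679 ± 5.59 TPM. The acid phosphatase gene Acp5 rose from 20.8 ± 0.0212 to 32.8 ± 3.73 TPM. Dpp7, a dipeptidyl peptidase gene, had a log2 fold change of 0.27, a call lost without PBS replicate 2 (adjusted p = 0.0632) or CS1 replicate 1 (0.0544), in a range of 0.011 to 0.0632 over its alternatives.

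Of 24 tested further membrane proteins and transporters, 10 fell (41.7%) and 8 rose (33.3%), against 31.6% and 35.3% of all tested features. The median was -0.055, and without CS1 replicate 1 the number higher was 5. Litaf, Cd68 and Slc11a1, a late endosomal adaptor, the macrophage glycoprotein macrosialin and a metal transporter of phagosomes, had log2 fold changes of -1.04, -0.98 and -0.69. Cd68 was at 648 ± 3.51 TPM in PBS and at 328 ± 6.39 TPM in CS1. The rises were led by Laptm4b, from 2.54 ± 0.276 to 11.0 ± 0.375 TPM, the glycoprotein gene Gpnmb, from 107 ± 0.184 to 210 ± 5.05 TPM, and the ion channel gene Tpcn1, from 47.9 ± 0.679 to 91.8 ± 2.28 TPM. The 3 Laptm genes thus did not share a direction, since Laptm4a and Laptm5 fell.

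Of 17 tested genes that sort hydrolases to the lysosome, 11 fell (64.7%) and 3 rose (17.6%), with a median of -0.28. Ap3b1, a subunit of the AP-3 adaptor, fell from 83.3 ± 3.45 to 49.9 ± 0.940 TPM, Cln8, which helps enzymes leave the endoplasmic reticulum, from 25.1 ± 0.813 to 16.2 ± 0.898 TPM, and Vps35, of the retromer that recycles the receptors, by 0.51 on the log2 scale. Gga2, an adaptor for the mannose 6-phosphate receptors, rose from 8.70 ± 0.0566 to 15.6 ± 0.205 TPM, and Sumf2 and Gnptab, the latter a subunit of the enzyme that makes the mannose 6-phosphate tag, had log2 fold changes of 0.27 and 0.20. Of 17 tested subunits of the vacuolar ATPase, which acidifies the organelle, 10 fell (58.8%) and 3 rose (17.6%), with a median of -0.20. Atp6v1e1 and Atp6v1a fell by 0.57 and 0.54 on the log2 scale, and Atp6v0c fell from 7.29 ± 0.0354 to 3.70 ± 0.0990 TPM, while Tcirg1 rose from 237 ± 9.38 to 335 ± 1.60 TPM. Atp6v1d and Atp6v0b had log2 fold changes of 0.12 and 0.067, calls lost in several alternatives (adjusted p up to 0.195 and 0.331). The number of higher subunits was 1 when libraries were rescaled by trimmed means of M values, with the variance trend off, and without PBS replicate 1, CS1 replicate 1 or CS1 replicate 2. Autophagy genes were mixed, with 14 of 36 lower (38.9%) and 12 higher (33.3%), against 31.6% and 35.3% of all tested features (median -0.023). Atg7 fell from 69.3 ± 0.0354 to 40.1 ± 0.00707 TPM and Calcoco1 rose from 29.8 ± 0.396 to 45.4 ± 0.233 TPM. Atg3 and Atg4d, a conjugating enzyme and a protease of the LC3 family, fell by 0.46 and 0.43 on the log2 scale, whereas Map1lc3a and Gabarapl1 of that family rose by 0.57 and 0.54. Differences between these lists and the 41 genes were not tested.

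**Figure D5:**
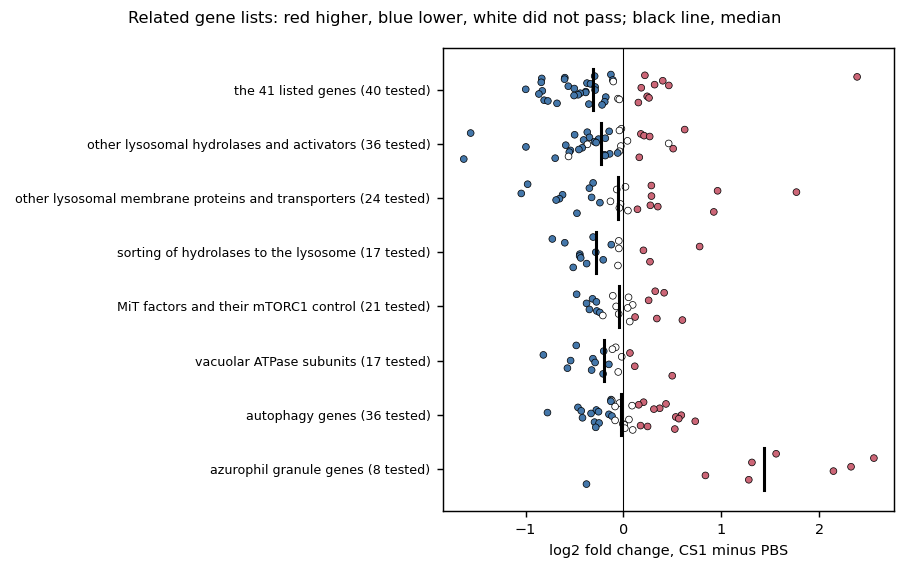
Log2 fold change of CS1 minus PBS for each tested gene of the 41 and of 7 related lists, with a black line at each median; red points rose, blue points fell and white points did not pass. The median is -0.32 for the 41 genes, lies between -0.28 and -0.023 for 6 lists, and is 1.44 for azurophil granule genes. All lists were chosen with earlier results of these data known.

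The cells carried myeloid RNA, and marker levels differed between the groups beside the lysosomal genes. Marker counts can be set beside 31.6% lower and 35.3% higher of all tested features. Of 9 markers of haematopoietic and myeloid identity 6 fell (66.7%), 2 rose (22.2%) and Cebpa did not pass (median -0.63). Ptprc, which encodes CD45, was at 583 and 597 TPM in PBS and at 323 and 315 TPM in CS1. Kit rose from 4.79 to 17.4 TPM on average (log2 fold change 1.68) and Cd33 from 376 to 438 TPM (0.22). Of 9 monocyte markers 6 fell, 1 rose, 1 did not pass and Fcgr1 was not tested, and their summed level was 17947 and 18120 TPM in PBS against 9733 and 9751 TPM in CS1, most of it Lyz2. Of 17 markers of spleen macrophages 8 were tested, with 5 higher and 3 lower, and the sum was 873 and 874 TPM in PBS and 552 and 546 TPM in CS1, most of it Cd68 and Adgre1. Those that rose included Apoe, from 42.9 to 84.5 TPM on average, Cd163, from 11.1 to 23.0 TPM, and Slc40a1, from 1.76 to 7.8 TPM. Mertk (0.405 to 3.6 TPM) and Vcam1 (0.66 to 1.44 TPM) rose too, and Marco fell with Cd68 and Adgre1. Of the markers not tested, C1qa, C1qb and C1qc were at 0.84 TPM or less in every library, and Spic and Timd4 at 0.22 or less. Neutrophil markers summed to 5507 and 5589 TPM in PBS and to 18157 and 18169 TPM in CS1 (6 of 10 higher, 3 lower), most of it S100a8 and S100a9 in every library. The 3 that fell were Mmp8, at 611 and 617 TPM in PBS and at 299 and 293 TPM in CS1, Ltf and Cxcr2. Ly6g did not pass (adjusted p = 0.837), at 3.85 and 5.21 TPM in PBS and at 4.67 and 4.04 TPM in CS1. Dendritic cell markers summed to 313 and 323 TPM in PBS and to 515 and 511 TPM in CS1 (5 of 8 tested higher, 1 lower). Most of that sum was Flt3, at 187 and 190 TPM in PBS and at 378 and 376 TPM in CS1. Which cells carry the Flt3 RNA was not tested. Summed markers of T cells were at 13.0 TPM or less in every library, of B cells at 70.4 or less, of NK cells at 9.77 or less, of erythroid cells at 43.1 or less, of platelets at 9.80 or less and of stroma and endothelium at 47.9 or less, the last nearly all Pecam1. The part of the monocytic and neutrophil markers in the lysosomal differences was not tested.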

How the data were processed

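The deposited table has 4 columns, 2 per group, and no other columns. Its values were taken as TPM made by the authors: the unit is in neither header nor labels and was inferred from decimals and column sums of 977973 to 986345. STAR, RSEM and mm10 are named in the submitters' processing notes, without versions. The lowest deposited value, 0.01, stands where a 0 would be expected. TPM keeps no read depth, so depth is unknown and counting error could not be computed. TPM is a share, so a change in abundant transcripts moves all others.

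Values became log2(TPM + 1), which understates changes of low genes. Features that reached 1 TPM in 2 libraries or more were fitted with limma 3.58.1 under R 4.3.3, with a trend in the variance, two-sided, with Benjamini-Hochberg adjustment over all 11866; every adjusted p is from this tool. An exact permutation test of 2 against 2 libraries has a smallest two-sided p of 0.333, so none is reported. Across tested features, deviations of PBS 1 and CS1 1 from their group means had r = 0.022.

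The 41 genes and all lists were chosen with earlier results of these data known. Genes named from a related list are up to 3 called genes with the highest and 3 with the lowest log2 fold change. They were at 5 TPM or more in the higher group. Igfbp4 is named outside this rule. A gene that this rule takes is not reported here. All 41 matched GENCODE M21 by symbol. Exons of 7 (Ctsa, Ctsb, Ctsz, Glb1, Arsa, Ppt1 and Lamp1) overlap another tested feature. Of the neighbours not described above, Nelfcd (beside Ctsz) rose. Fdft1 (beside Ctsb), C230037L18Rik (beside Arsa) and Grtp1 (beside Lamp1) did not pass. Alternatives were a pseudocount of 0.1, no filter, rescaling by trimmed means of M values, quantile normalization, no variance trend, a replicate block and leaving out each library.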

Additional observations from a re-analysis of the deposited data

How the results depend on the processing

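Of the 37 genes called among the 41, 32 kept direction and call under every alternative (25 lower and 7 higher). The others were Ctsh, Naglu, Arsa, Arsb and Smpd1. The number lower was 26 to 29 and the number higher 8 to 10 over the alternatives, against 28 and 9, and all features called numbered 6676 to 7926, against 7949. After quantile normalization the sign turned for Ctsh (log2 fold change 0.045) and Npc2 (0.073); the cause was not tested. The number of higher proteases was 2 with no filter on low values, because Ctsf was then tested. The number of higher sulfatases and lipid hydrolases was 1 without any 1 of the 4 libraries, against 2, since Arsb or Smpd1 was then lost. Rescaling moved the median of all features from 0.040 to 0.0050 (trimmed means of M values) and -0.0052 (quantile), and that of the 41 genes from -0.32 to -0.35 and -0.23.

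The groups share replicate numbers, but nothing in the labels says that they pair samples. With the replicate block, 27 of the genes were lower and 9 higher, 7750 features were called, and the Arsa call was the only one of the 41 lost. With each library left out in turn, a lone sample is assumed to vary like the other group. Unknown depth limits what can be said of genes near 1 TPM.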
